A study of Mus musculus with 13 samples.

Results

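The small RNA pathway genes examined here were 10 genes chosen by name, with earlier results of these data known: Dicer1, Drosha, Dgcr8, Ago1, Ago2, Ago3, Ago4, Piwil2, Mael and Ddx4. All 10 were found among the 18939 genes of the count tables and the 49686 genes of the FPKM table. They were measured by SMART-seq2 RNA sequencing of single mouse oocytes in 13 libraries, each of 1 oocyte: 3 GV oocytes of the NSN type and 3 of the SN type, 3 MII oocytes matured from NSN oocytes (NSN-MII) and 4 matured from SN oocytes (SN-MII). GV oocytes are fully grown oocytes that still hold the germinal vesicle, the large nucleus of meiotic prophase, and MII oocytes have matured to the second meiotic metaphase. NSN oocytes have chromatin that does not surround the nucleolus and SN oocytes have a ring of chromatin around it. The study asked how the transcriptomes of the NSN and SN types differ before and after maturation. All oocytes came from C57BL/6 females 3 to 4 weeks old, 48 h after PMSG, a gonadotropin that stimulates follicle growth. All were injected with FBL–GFP mRNA, which marks the nucleolus, and with H2B-mCherry mRNA, were held at the GV stage in Cilostamide for 6 h, and were sorted into NSN and SN by their FBL–GFP pattern. The oocytes of the MII groups were then released and matured in vitro, and the zona pellucida was removed before lysis, so every group, GV included, had been injected and held in the inhibitor. The paper reports that a smaller share of NSN than of SN oocytes matured. The MII groups hold only oocytes that did, and the GV and MII libraries come from different oocytes. The labels do not say which animals the oocytes came from, and p-values measure the spread between these oocytes only.

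In RNA silencing, short RNAs guide Argonaute proteins to target RNAs. Drosha and its partner Dgcr8 form the Microprocessor, which cuts microRNA hairpins out of primary transcripts in the nucleus, and Dicer1 cuts the resulting hairpins, or long double-stranded RNA, into the small RNA duplex in the cytoplasm. Ago1 to Ago4 bind the small RNA, and Ago2 can slice a matched target. Mouse oocytes are known for abundant endogenous siRNAs, made by a Dicer form that starts at an intronic repeat element, while microRNAs have little activity in them. Piwil2 (MILI) binds piRNAs, the small RNAs that silence transposons in germ cells, and Mael and the helicase Ddx4 (MVH, vasa) belong to the same germ granule pathway. The values given here are for whole genes, so the oocyte form of Dicer1 could not be separated from the somatic form.

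Total counts per library lay between 7140416 and 8846287. All 11 oocyte markers were detected in every group, at a summed 22696 to 36043 CPM, the count relative to the TMM-scaled size of the library. Of 20 cumulus and granulosa cell markers, 18 were detected in at least 1 library. Their summed level was 61.8 to 93.8 CPM in GV libraries and 102 to 189 CPM in MII libraries, most of it Cyp19a1 (37.8 to 67.3 and 77.1 to 158 CPM). Foxl2 and Ptx3 were at 0 in all libraries, Fshr was at 0 in all MII libraries, and the leukocyte gene Ptprc did not pass 0.828 CPM. These marker levels moved with the stage, and their part in the stage differences below was not tested. Values are relative to each library's total, so a change in one gene and a change in the RNA content of the whole oocyte cannot be told apart.

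SMART-seq2 primes on poly(A) tails, and maturing oocytes are known to lengthen the tails of some stored mRNAs through a cytoplasmic polyadenylation element near the polyadenylation hexamer. The 3′ ends of the longest coding transcripts of the members (GRCm38, GENCODE M21) are therefore shown for 4 members with different arrangements of these letters. The letters TTTTAT or TTTTAAT, on the transcript strand only, were searched in the last 100 bases, and AATAAA or ATTAAA in the last 50 bases. Windows of 30 bases are printed, with these letters in capitals.
Ago3: gcagaaagctAATAAAgtTTTTAATcaaaa
Dicer1: tctTTTTAATaattgtagtcAATAAAgtta
Ddx4: tgcTTTTATaatatacagattttccttgca
Drosha: ttaatgATTAAAtgttccgtttctagctgg
Ago3 held both within 1 window, with the hexamer 20 and the element 12 bases before the transcript end. Dicer1 held both in the reverse order. Ddx4 held the element 54 bases before its end with its hexamer outside the window shown, and Drosha held a hexamer alone. Mael and Dgcr8 held neither in the annotated end. In all, 5 of 10 members held the element, against 16.6% of 21828 protein-coding genes, and 7 of 10 held the hexamer, against 72.3%. These are matches of letters in annotated ends, not sites shown to be used.

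Between GV and MII oocytes, Mael and Drosha fell on the count and the FPKM scale, Dgcr8 was lower on both but passed on counts alone, and Ago3 rose on counts but lay at -0.22 in FPKM (log2). By the quasi-likelihood test of edgeR, with p-values adjusted over all genes (Benjamini-Hochberg), 4 of the 9 members tested passed an adjusted p of 0.05, 1 higher and 3 lower at MII. Of all 11375 genes tested, 68.6% passed, with 31.7% higher and 36.9% lower, so the members' count was below the share of all genes. The median log2 fold change was -0.37 over the 9 members and -0.10 over all genes. Ago1 had too few counts to enter the test.

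**Figure D1:**
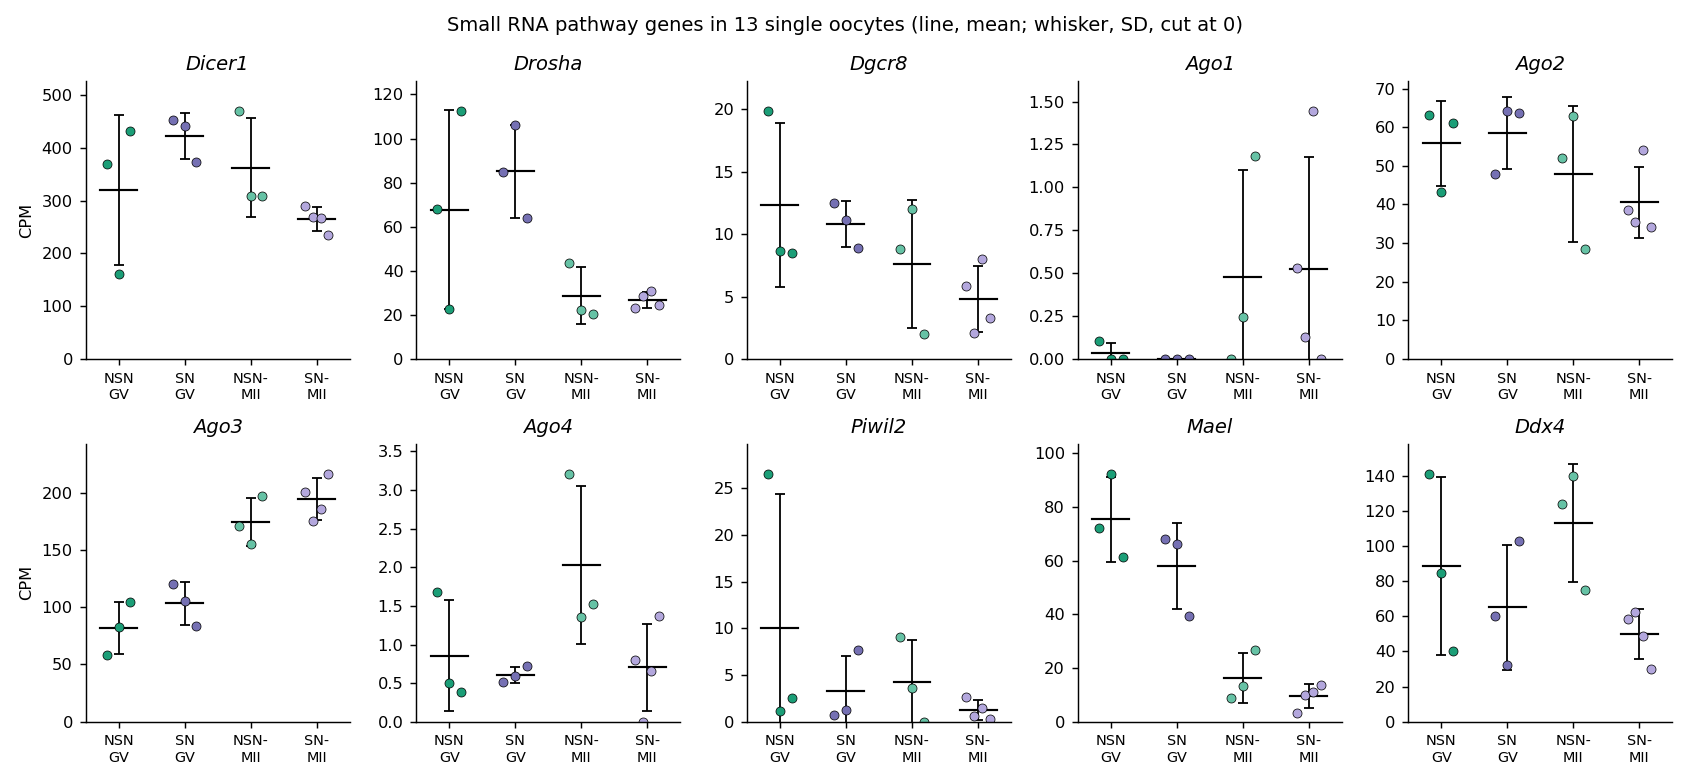
Each panel shows 1 gene in CPM (TMM-scaled, linear axis from 0), with a point for each oocyte, a line at the group mean and a whisker of 1 SD, cut at 0, for the 4 groups (n = 3 each, and 4 for SN-MII). Mael is lower in every MII oocyte (3.32 to 26.9 CPM) than in any GV oocyte (39.5 to 92.4 CPM), and Ago3 is higher in every MII oocyte on this scale, though not in FPKM.

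Among the processing enzymes, Drosha, the nuclease of the Microprocessor, was at 68.1, 22.7 and 113 CPM in the 3 NSN GV oocytes and at 85.1, 106 and 64.2 CPM in the 3 SN GV oocytes. It was at 43.7, 22.3 and 20.3 CPM in NSN-MII oocytes and at 23.1, 28.6, 30.8 and 24.7 CPM in SN-MII oocytes. The second NSN GV oocyte, at 22.7 CPM, lay within the range of the MII oocytes, and the other 5 GV oocytes lay above all of them. Drosha fell by 1.45 on the log2 scale (SE 0.29, adjusted p = 0.00034 by edgeR), to 0.366 of the GV level. With each library left out in turn the log2 fold change lay between -1.70 and -1.16 and passed in all 13 fits.

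Dgcr8, the RNA-binding partner of Drosha, was at 19.9, 8.62 and 8.48 CPM in NSN GV oocytes and at 12.5, 11.1 and 8.86 CPM in SN GV oocytes, against 8.81, 12.0 and 2.03 CPM in NSN-MII and 5.84, 2.06, 8.02 and 3.27 CPM in SN-MII oocytes. The stages overlapped. Its log2 fold change was -0.93 (SE 0.40, adjusted p = 0.0488 by edgeR), just inside the threshold, and it passed in only 4 of the 13 fits that left out a library. Without the first NSN GV oocyte, the highest of all, it was -0.66 (adjusted p = 0.169). Dgcr8 counts were not whole numbers in any of the 13 libraries, which means that some of its reads were shared with other genes. Counts of Dicer1 were not whole in 11 libraries, and those of Ago1 and Ago3 in 4 each. Of the exonic bases of Dgcr8, 10.7% overlap Trmt2a on the other strand and 4.25% overlap Gm49776 on the same strand.

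Exons of Dgcr8 (chr16:18253948-18289246, minus strand, GRCm38) also hold 2 microRNA hairpins, those of miR-1306 and miR-3618, in the gene whose product takes part in cutting such hairpins. Their mature microRNAs from RefSeq (GRCm38) are shown with the seed, bases 2 to 8, in capitals, because the same bases count as Dgcr8 mRNA.
mmu-miR-1306-5p (chr16:18284288-18284310): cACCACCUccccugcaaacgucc
mmu-miR-1306-3p (chr16:18284248-18284268): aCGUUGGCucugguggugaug
mmu-miR-3618-5p (chr16:18284602-18284623): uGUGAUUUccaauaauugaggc
mmu-miR-3618-3p (chr16:18284562-18284583): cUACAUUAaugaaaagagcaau
No seed is shared between them. Both hairpins were listed at 0 FPKM in all 13 libraries. Libraries primed on poly(A) tails do not measure mature microRNAs, and no member's activity was measured.

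Dicer1, the nuclease that makes both microRNAs and endogenous siRNAs, was at 369, 160.4 and 432 CPM in NSN GV oocytes and at 453, 442 and 373 CPM in SN GV oocytes. NSN-MII oocytes held 470.4, 308 and 308 CPM, and SN-MII oocytes 289.95, 269, 266 and 235 CPM. The second NSN GV oocyte was again the lowest, below every other library, and the stages overlapped. The change with maturation was -0.25 on the log2 scale (SE 0.19, adjusted p = 0.269 by edgeR). Without that oocyte it was -0.41 (adjusted p = 0.0175).

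Among the Argonautes, Ago3, which like all 4 binds microRNAs, was at 58.7, 83.1 and 104 CPM in NSN GV oocytes and at 121, 106 and 83.6 CPM in SN GV oocytes. It was at 170.5, 155 and 197 CPM in NSN-MII oocytes and at 201, 175, 185 and 217 CPM in SN-MII oocytes. Every MII oocyte was above every GV oocyte. Ago3 rose by 1.0 on the log2 scale of counts, a direction that FPKM turned (SE 0.16, adjusted p = 2.9e-05 by edgeR), and passed in all 13 fits that left out a library, at 0.90 to 1.11.

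Ago2, the Argonaute with slicer activity, was at 43.2 to 64.2 CPM in the 6 GV oocytes (median 62.1) and at 28.5 to 63.0 CPM in the 7 MII oocytes (median 38.5). The ranges overlapped, with NSN-MII oocytes at 52.1, 63.0 and 28.5 CPM and SN-MII oocytes at 38.5, 35.5, 54.2 and 34.2 CPM. The log2 fold change was -0.37 (SE 0.20, adjusted p = 0.109 by edgeR). It passed in 1 of the 13 fits that left out a library, that without the second NSN-MII oocyte (-0.495 on the log2 scale, adjusted p = 0.0494). Of the summed FPKM of the 4 Argonaute genes, Ago3 took 59.2% ± 4.17 (SD, n = 6) at GV and 74.5% ± 8.50 (SD, n = 7) at MII, and Ago2 took 40.7% ± 4.16 and 25.2% ± 8.51. Of their summed counts, with no regard to length, Ago3 took 61.0% ± 8.21 and 80.2% ± 5.98. The mean share of Ago3 was thus higher at MII on both scales, a difference that was not tested. The stages overlapped, at 52.5% to 65.4% (GV) and 63.0% to 88.3% (MII) of FPKM. Of counts, the share was 47.4% to 71.4% at GV and 70.6% to 86.3% at MII.

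Ago4 and Ago1 were near the detection limit in all oocytes. Ago4 had 3 to 16 counts in GV libraries and 0 to 27 counts in MII libraries, and its log2 fold change was 0.71 (SE 0.70, adjusted p = 0.377 by edgeR). Ago1 had at most 1.01 counts in any GV library. In MII libraries it had 0, 2 and 7 counts in NSN-MII and 4.06, 1.01, 11.1 and 0 counts in SN-MII oocytes. A floor of 3 counts per library was taken as the limit that a count of 0 allows, covering counting error only. Ago1 lay below that floor in every GV library and was at 0 counts in 7 of the 13 libraries, too low to size a difference between the stages. It passed the test only when no filter on low counts was applied (adjusted p = 0.0186 by edgeR). Ago3, Ago1 and Ago4 lie next to each other on the minus strand of chromosome 4, at chr4:126331704-126429556, chr4:126435012-126468583 and chr4:126489541-126533472 (GRCm38). Of these neighbours Ago3 was at 64.4 to 108 FPKM over all 13 oocytes, Ago1 at 0.51 FPKM or less and Ago4 at 0.46 FPKM or less.

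Of the piRNA factors, Mael showed the largest change of any member that passed. It was at 72.2, 92.4 and 61.4 CPM in NSN GV oocytes and at 68.1, 66.4 and 39.5 CPM in SN GV oocytes. MII oocytes held 8.93, 13.2 and 26.9 CPM (NSN-MII) and 3.32, 10.02, 10.9 and 13.8 CPM (SN-MII). The 2 stages did not overlap. Mael fell by 2.41 on the log2 scale (SE 0.31, adjusted p = 3e-06 by edgeR), to 0.188 of the GV level, and passed in all 13 fits that left out a library. Ago3 and Mael were the 2 of 9 tested members whose stages did not overlap in CPM, against 47.4% of all genes tested.

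Ddx4, a DEAD-box helicase and a general germ cell marker, did not pass between the stages. It ranged from 32.4 to 141 CPM at GV (median 72.2) and from 30.1 to 140 CPM at MII (median 62.3), almost the same range. Its log2 fold change was -0.02 (SE 0.30, adjusted p = 0.964 by edgeR). Piwil2 was low and uneven between oocytes. It had 253, 9 and 20 counts in NSN GV, 6, 11 and 64 in SN GV, 76, 29 and 0 in NSN-MII and 20, 5, 11 and 2 in SN-MII oocytes. The first NSN GV oocyte alone held more counts than the other 5 GV oocytes together. Its log2 fold change was -1.30 (SE 0.84, adjusted p = 0.180 by edgeR), and it lay between -1.96 and -0.07 with each library left out.

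The choice of unit changed the result for the Argonautes and Dicer1. FPKM divides the count by a gene length that RSEM, the authors' quantifier, weights by its estimate of the isoforms in each library. On log2(FPKM + 1), limma called 3 of the 8 members tested, against 70.4% of all genes, and the list of called members was not that of the counts. Ago2 was now called, at -1.24 (SE 0.20, adjusted p = 8.91e-05 by limma). It was at 53.3 to 81.1 FPKM in GV oocytes and at 12.4 to 40.9 FPKM in MII oocytes, without overlap. The share of all genes whose stages do not overlap in FPKM was not computed. Ago3 turned to -0.22 (SE 0.13, adjusted p = 0.129 by limma), with 76.1 to 108 FPKM at GV and 64.4 to 94.2 FPKM at MII. The median of all genes was -0.24 on this scale, so Ago3 lay close to the median gene. Dicer1 turned to 0.16 (SE 0.18, adjusted p = 0.445 by limma). Drosha (-1.24, adjusted p = 0.0026 by limma) and Mael (-2.50, adjusted p = 1.5e-06) kept both direction and call. Dgcr8 was lower but not called on this scale (-0.57, SE 0.28, adjusted p = 0.0864 by limma). With a pseudocount of 0.1 it was at -0.89 (SE 0.45, adjusted p = 0.0941), close to its value on counts.

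**Figure D2:**
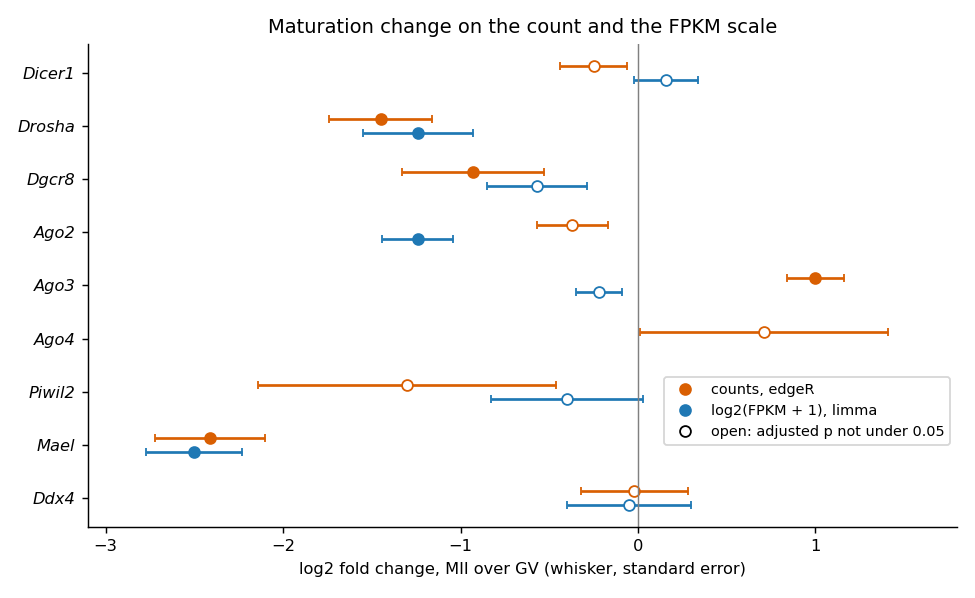
Points show the log2 fold change, MII over GV, of each tested member with a whisker of 1 standard error, from edgeR on counts (orange) and from limma on log2(FPKM + 1) (blue; Ago4 had a mean under 1 FPKM), filled where the adjusted p was under 0.05. Ago3 lies at 1.0 on counts and at -0.22 on FPKM, Ago2 at -0.37 and -1.24, whereas Mael lies at -2.41 and -2.50.

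The length behind each FPKM value was read back from the count, the FPKM and the library's total count. It holds a factor of the library, so shifts between stages were centred on the median gene. Ago3 had an implied length of 837 to 1447 bases in GV oocytes and of 1907 to 2897 bases in MII oocytes, without overlap. The centred shift was 1.09 on the log2 scale, or 2.13-fold, and 0.701% of 6847 genes with at least 20 counts in every library shifted as far. Ago2 went from 825 to 1447 bases at GV to 1153 to 2294 bases at MII, a 1.66-fold shift that 2.19% of genes matched. Dicer1 moved the other way, from 6000 to 8536 bases to 3611 to 6127 bases, a shift to 0.708-fold that 5.13% of genes matched. Mael and Ddx4 shifted by -0.01 and -0.02 on the log2 scale. Over all these genes the median absolute shift was 0.042 on the log2 scale, and 3.46% shifted by 1.5-fold or more.

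**Figure D3:**
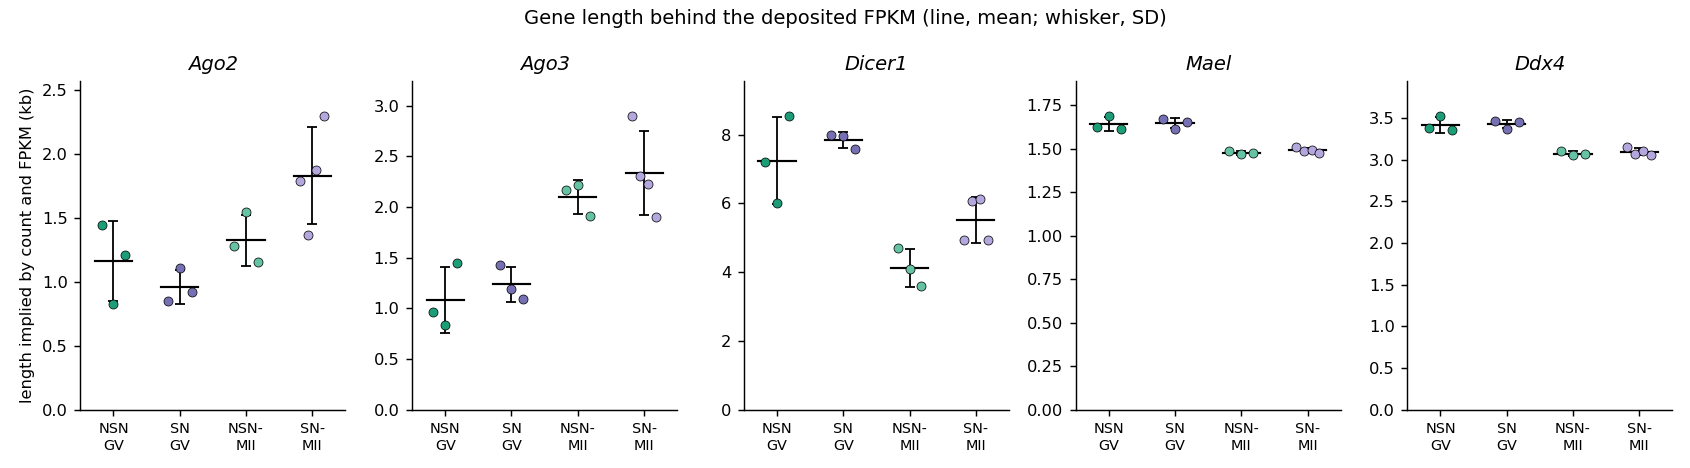
Each panel shows the gene length in kb implied by an oocyte's count and FPKM (linear axis from 0), with a point for each oocyte, a line at the group mean and a whisker of 1 SD. The plotted lengths are not centred and hold the factor of each library. Ago3 and Ago2 lengths are higher at MII and Dicer1 lengths lower. Mael and Ddx4 lengths are nearly constant within a stage (highest over lowest at most 1.05). They too are lower in every MII oocyte, for Mael at 1468 to 1509 bases against 1612 to 1687 bases at GV. For Ddx4 they are 3053 to 3148 bases against 3352 to 3522 bases.

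The annotation gives Ago3 and Ago2 transcripts of very different length. Ago3 has 6 transcripts, of which the longest coding one has 15595 bases and the shortest 433 bases, and Ago2 has 3, of 13800, 617 and 616 bases. The implied lengths of both genes lay far below the longest transcript in every library, closer to the short ones. Dicer1 has 6 transcripts between 647 and 9851 bases. Mael (1546 and 1691 bases) and Ddx4 (2762 and 3012 bases) have 2 transcripts each of similar length. The reads on each transcript were not analysed here, and whether the oocytes' isoforms, their tail lengths or the isoform estimate moved with the stage was not tested.

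The order of levels among the members depended on the same length. By FPKM at GV, Ago3 was first (89.4 ± 12.0 FPKM, SD, n = 6), followed by Ago2 (61.5 ± 10.2), Dicer1 (54.2 ± 12.8), Mael (45.3 ± 11.4), Ddx4 (25.9 ± 15.9), Drosha (16.8 ± 6.83), Dgcr8 (2.90 ± 1.14), Piwil2 (1.72 ± 2.88), Ago4 (0.11 ± 0.086) and Ago1 (0.0033 ± 0.0082). Each neighbour in this order overlapped the next in its range, except Ago4 and Ago1. By CPM per kb of the longest coding transcript at GV, Mael (39.4 ± 10.1) and Dicer1 (37.7 ± 11.1) were first, and Ago3 (5.94 ± 1.41) and Ago2 (4.15 ± 0.669) came after Ddx4 and Drosha. At MII Dicer1 was first on that scale (31.1 ± 7.78, SD, n = 7), followed by Ddx4 (25.6 ± 13.4) Ago3 (11.9 ± 1.33) and Mael (7.35 ± 4.28). By FPKM at MII the order began with Ago3 (76.3 ± 10.1), Dicer1 (59.5 ± 22.7) and Ago2 (26.1 ± 10.6), and of the neighbours in it only Drosha (6.04 ± 1.84) and Dgcr8 (1.69 ± 1.03) did not overlap. On both scales and at both stages Dgcr8, Piwil2, Ago4 and Ago1 held the last 4 places.

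When NSN were compared with SN oocytes before maturation, no member passed. Of 8 members tested at GV, 0 had an adjusted p under 0.05 by edgeR's quasi-likelihood test, where 0.0% of 10839 genes passed, and 0 had an unadjusted p under 0.05, where 1.75% of genes did. DESeq2 called 0 members and 0.0% of genes as well. No member had NSN and SN oocytes that did not overlap in CPM, against 6.03% of all genes. In FPKM the groups of Ago2 did not overlap, at 53.3 to 57.0 FPKM in NSN and 60.8 to 81.1 FPKM in SN oocytes. The share of all genes without overlap in FPKM was not computed. On log2(FPKM + 1) the Ago2 difference was -0.29 (SE 0.17, unadjusted p = 0.132 by limma). The log2 fold changes, NSN over SN, were -0.37 (SE 0.33) for Dicer1, -0.30 (0.48) for Drosha, 0.24 (0.44) for Dgcr8, -0.04 (0.25) for Ago2 and -0.32 (0.23) for Ago3. They were 1.71 (SE 1.22) for Piwil2, 0.40 (0.26) for Mael and 0.48 (0.53) for Ddx4. Of the 8 values, 4 were positive, and the median was 0.10, where 51.1% of all genes were positive with a median of 0.01.

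At the MII stage no member passed either, and the nearest was Ddx4. It was at 124, 140 and 75.2 CPM in NSN-MII oocytes and at 58.5, 62.3, 48.8 and 30.1 CPM in SN-MII oocytes. Every NSN-MII oocyte was above every SN-MII oocyte. The log2 fold change was 1.18 (SE 0.28), or 2.27-fold, with an adjusted p of 0.132 and an unadjusted p of 0.0013 by edgeR. Over the alternatives its adjusted p lay between 0.00688 and 0.609. DESeq2 called it (adjusted p = 0.00688, where 2.17% of all genes passed), as did edgeR without a filter on low counts (adjusted p = 0.0325) and without the third NSN-MII oocyte (adjusted p = 0.0154).

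Dicer1 was the other member whose MII groups did not overlap in CPM, at 308 to 470.4 CPM in NSN-MII and 235 to 289.95 CPM in SN-MII oocytes. Its log2 fold change was 0.45 (SE 0.18, adjusted p = 0.445 by edgeR). With each library left out it lay between 0.21, without the first NSN-MII oocyte, and 0.56. Of 9 members tested, 0 had an adjusted p under 0.05, against 0.259% of 10028 genes. Dicer1 and Ddx4 were the 2 with an unadjusted p under 0.05, against 9.38% of genes, and the 2 whose groups did not overlap in CPM, against 10.2% of genes. In FPKM the groups of Ago4 did not overlap either, at 0.18 to 0.46 FPKM in NSN-MII and 0 to 0.16 FPKM in SN-MII oocytes, where its CPM of 1.361 to 3.21 and 0 to 1.363 just met. These Ago4 values rest on 9 to 27 counts in NSN-MII and 0 to 10 counts in SN-MII oocytes, near the detection limit. The share of all genes without overlap in FPKM was not computed. The differences of the other members were 0.11 (SE 0.30) for Drosha, 0.69 (0.62) for Dgcr8, 0.25 (0.29) for Ago2, -0.16 (0.15) for Ago3, 1.52 (0.92) for Ago4, 1.76 (1.06) for Piwil2 and 0.76 (0.48) for Mael. With each library left out, Piwil2 lay between 0.56, without the first NSN-MII oocyte, and 2.42, and Mael between 0.23, without the third NSN-MII oocyte, and 1.05. Dgcr8 lay between 0.19 and 1.13 and Ago4 between 1.01 and 2.04. Of the 9, 8 were positive, with a median of 0.69, where 52.0% of all genes were positive with a median of 0.02. The members share the same 7 libraries and these counts are a description. On log2(FPKM + 1) the Dicer1 difference was larger, at 0.86 (SE 0.19, unadjusted p = 0.0014, adjusted p = 0.190 by limma), and that of Ddx4 was 1.17 (SE 0.35, adjusted p = 0.344). These 2 were again the members with an unadjusted p under 0.05, against 9.55% of genes.

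**Figure D4:**
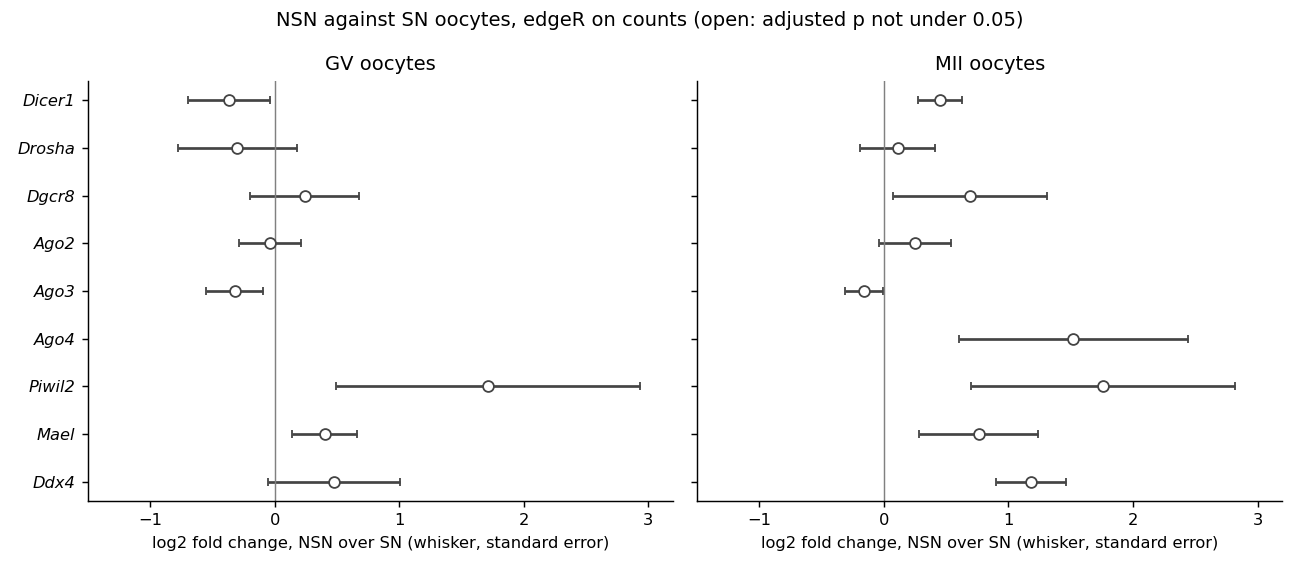
Points show the log2 fold change, NSN over SN, of each tested member in GV oocytes (left, 3 against 3) and in MII oocytes (right, 3 against 4), with a whisker of 1 standard error from edgeR on counts. All points are open since no adjusted p was under 0.05, and Ddx4 at MII (1.18) is the farthest from 0 in units of its error.

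The difference between the types was set against the stage in an interaction of the 2. Of 9 members, 0 passed by edgeR (adjusted p under 0.05), against 0.0176% of all genes, and 1 had an unadjusted p under 0.05, against 5.33% of genes. That was Dicer1, whose NSN to SN difference went from -0.37 at GV to 0.45 at MII. Its interaction was 0.85 (SE 0.39, unadjusted p = 0.0442, adjusted p = 0.925 by edgeR), and lay between 0.528 and 1.133 with each library left out. The Dicer1 difference at GV was -0.04 (SE 0.15) without the second NSN GV oocyte. At MII it was 0.21 (SE 0.16) without the first NSN-MII oocyte. All 9 interaction values on counts were positive, with a median of 0.43, where 53.1% of all genes were positive with a median of 0.04. The members share the same 13 libraries, so these signs are a description. Some values were small beside their error, as for Piwil2 (0.12, SE 1.58) and Ago3 (0.17, SE 0.31). Drosha, Ago3, Piwil2 and Mael crossed 0 with a library left out. DESeq2 called 0 members, against 0.404% of genes. On log2(FPKM + 1) the interaction of Dicer1 was 1.21 (SE 0.36, unadjusted p = 0.0046, adjusted p = 0.609 by limma) and that of Ago2 was 0.93 (SE 0.41, unadjusted p = 0.0386, adjusted p = 0.886), so 2 members had an unadjusted p under 0.05 there, against 5.28% of genes. Taken within each type on counts, the change from GV to MII passed by edgeR for Drosha, Ago3 and Mael in both. No FPKM fit was run within a type, and over both types Ago3 was at -0.22 on log2(FPKM + 1). In SN oocytes alone 4 members passed, against 56.3% of all genes, the fourth being Dicer1 at -0.67 (SE 0.26, adjusted p = 0.0395 by edgeR). In NSN oocytes alone 3 passed, against 56.3% of all genes, and Dicer1 was at 0.18 (SE 0.29, adjusted p = 0.620). The interaction above is the test of that difference, and it did not pass after adjustment.

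The wider pathway was read from 3 gene lists written from general knowledge, with earlier results of these data known. Of 15 genes that assist microRNA processing, 6 rose, 4 fell and 5 did not pass between GV and MII, with a median of -0.20 against -0.10 over all genes. Of all genes tested 31.7% rose and 36.9% fell, 68.6% in all, and the 10 of 15 called here were close to that share. Tarbp2, the double-stranded RNA binding partner of Dicer, fell by 3.86 on the log2 scale (SE 0.25, adjusted p = 9.7e-10 by edgeR), from 110 to 151 CPM at GV to 4.50 to 12.7 CPM at MII. Xpo5, which exports hairpins from the nucleus, fell by 1.49 (SE 0.32, adjusted p = 0.00059), from 46.8 to 101 CPM to 8.86 to 46.2 CPM. Lin28b, which blocks the processing of let-7 precursors, rose by 1.61 (SE 0.22, adjusted p = 5.6e-06), from 6.99 to 14.5 CPM to 28.1 to 53.9 CPM. These 3 were picked by a rule that required stages without overlap, so their lack of overlap is not a result. Of the 15 genes, 6 did not overlap between the stages in CPM, against 47.4% of all genes tested.

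Of 15 partners of the Argonaute complex, 13 were tested, of which 7 rose, 4 fell and 2 did not pass, against 31.7% and 36.9% of all genes that rose and fell, with a median of 0.56 against -0.10 over all genes. Mov10, an RNA helicase found with Argonautes, fell by 4.09 (SE 0.39, adjusted p = 1e-07 by edgeR), from 14.4 to 23.4 CPM to 0.169 to 2.23 CPM. Tsnax, a subunit of the nuclease that removes the passenger strand, fell by 1.56 (SE 0.17, adjusted p = 5.6e-07), from 187 to 235 CPM to 34.5 to 136 CPM. Limd1, a scaffold between Argonautes and the cap-binding complex, rose by 1.69 (SE 0.16, adjusted p = 8.1e-08), from 36.0 to 58.5 CPM to 125 to 173 CPM. The GW182 genes Tnrc6a (1.24), Tnrc6b (1.31) and Tnrc6c (1.01), which bind Argonautes to deadenylases and were singled out after their values were seen, rose as well (adjusted p = 0.00049, 1.9e-05 and 0.00025 by edgeR).

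Of 26 genes of the piRNA pathway, 24 were tested, of which 5 rose, 14 fell and 5 did not pass, against 31.7% and 36.9% of all genes that rose and fell (68.6% in all), with a median of -0.93 against -0.10 over all genes. Gtsf1, a cofactor of PIWI proteins, fell by 4.03 (SE 0.23, adjusted p = 2.2e-10 by edgeR), from 292 to 540.4 CPM to 9.63 to 34.6 CPM. Pnldc1, the exonuclease that trims piRNA 3′ ends, fell by 4.77 (SE 0.30, adjusted p = 6.4e-10), from 16.5 to 29.96 CPM to 0.476 to 1.36 CPM. Gtsf1l, a relative of Gtsf1, had at most 1 count in any MII library and was at least 4.73-fold lower than at GV, against a floor of 3 counts per library. Piwil1, a PIWI protein chosen after its value was seen, rose by 1.75 (SE 0.26, adjusted p = 1.7e-05), from 9.62 to 22.0 CPM to 23.9 to 85.5 CPM. In the type comparisons at GV and MII and in the interaction, 0 genes of the 3 lists passed by edgeR, where 0.0%, 0.259% and 0.0176% of all genes did. Unadjusted p-values under 0.05 were found for 0 list genes at GV (1.75% of all genes), for 3 of 12 Argonaute partners and 0 other list genes at MII (9.38% of all genes), and for 3 of 13 Argonaute partners and 2 of 24 piRNA genes in the interaction (5.33% of all genes).

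**Figure D5:**
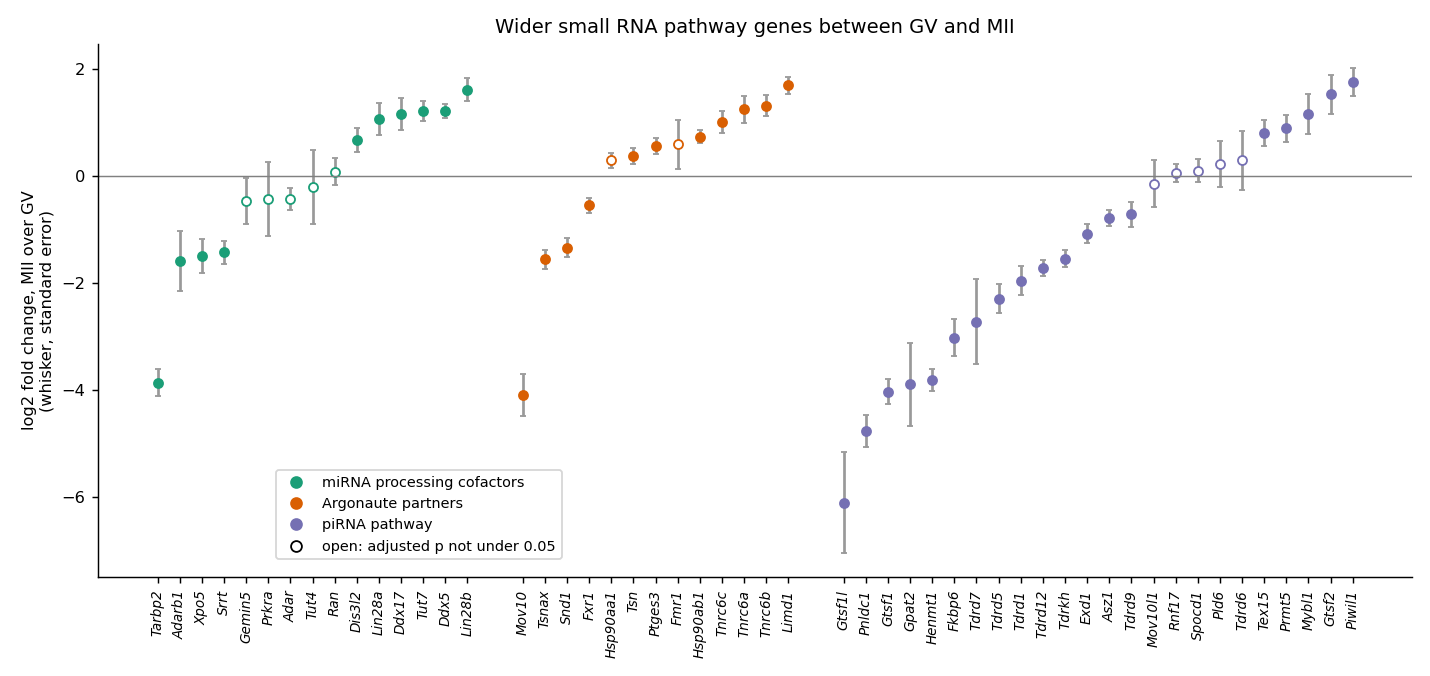
Points show the log2 fold change, MII over GV, of every tested gene of the 3 lists, ordered within its list, with a whisker of 1 standard error from edgeR on counts, and filled where the adjusted p was under 0.05. The piRNA list has 14 called genes below 0 and 5 above, and Gtsf1l at the far low end is at or below 3 counts in every MII library, so its plotted fold depends on the fit.

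The gene whose pattern over the 13 libraries was most like that of each tested member was found by the root mean square difference of log2(CPM + 1) centred per gene, over 11374 genes. Ago3 was closest to Mapkap1 (0.133), Dicer1 to Dgkd (0.188), Ago2 to Micu2 (0.194) and Drosha to Zfp592 (0.223). Ago4 was closest to Smarcc1 (0.313), Ddx4 to Rbm5 (0.318), Dgcr8 to Mrvi1 (0.363), Mael to Stip1 (0.458) and Piwil2 to Cog2 (0.535). The members' own spread on this scale, the root mean square of the centred values, lay between 0.377 (Ago2) and 1.37 (Mael). No member had another member as its nearest gene. With 11374 genes compared and few of them members, this was likely for any small set. It cannot tell whether the members vary together.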

How the data were processed

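Reads of 13 single-oocyte libraries were processed by the authors. The submitters' processing notes name Trim Galore 0.4.4, Bowtie2 2.3.5, RSEM 1.2.28, DESeq2 1.20.0 and the build mm10. The expected counts of RSEM were deposited by the authors in 1 table per stage, without normalization, with reads that map to several genes shared between them. FPKM values, also deposited by the authors, come in 1 table for all libraries, scaled by library size and a gene length weighted by isoform. The methods name the Ensembl annotation for mapping and RefSeq genes for the RSEM values. The strand setting is not given in the sources used here, molecular identifiers are not named, and intervals of counts would cover counting error only. The number of columns left unused was 0.

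Here, the counts were rounded to integers, passed through filterByExpr by group and TMM-scaled (edgeR 4.0.16, R 4.3.3). The quasi-likelihood test (glmQLFTest, two-sided) was fitted to all genes with Benjamini-Hochberg adjustment, within GV and within MII for NSN against SN oocytes, and over all 13 libraries for MII against GV, both types weighted equally, and for the interaction. The call was an adjusted p below 0.05. The common biological coefficient of variation was 0.364. CPM is per TMM-scaled library. Coordinates and transcripts are from GENCODE M21 (GRCm38). The implied length is the count divided by FPKM and the total count of the library.

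The members and gene lists (oocyte, cumulus and granulosa, and blood cell markers, microRNA processing, Argonaute partners, piRNA pathway) were chosen with earlier results of these data known. Of 4 blood cell markers, Ptprc alone was in the tables and the others were not used here. Named were all members, the 3 called genes with the largest change per pathway list whose stages did not overlap, list genes called in another comparison (0 were), and the nearest gene to each member. Genes named outside this rule are marked as such.

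Alternatives were DESeq2 1.42.0, its size factors, no filter on low counts, limma 3.58.1 on log2(FPKM + 1) for genes with a mean of at least 1 FPKM, a pseudocount of 0.1, all genes above 0 FPKM, the replicate number as a block, all libraries in 1 fit for the type comparisons, other call rules and leaving out each library. Maturation within each type was added after the data were seen. The edgeR steps were tested on simulated data. No pair of libraries shared more than 1.25% of their counts, so none was a copy.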

Additional observations from a re-analysis of the deposited data

Results flagged for a closer look

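Of 29 groups of member values (each member in the 6 GV or the 7 MII oocytes, or in the 4 SN-MII oocytes), 6 had a highest or lowest oocyte that stood apart by Dixon's criterion at 95%. Chance flags about 1 in 20 groups where values are normal and groups independent. Here the 4 SN-MII oocytes are part of the 7 MII oocytes, and Ago4 and Piwil2 have low, uneven counts. The rate is therefore nominal, and the flags are a description. At GV, Dicer1 was lowest in the second NSN oocyte, at 160.4 CPM with the next at 369 CPM. The first NSN GV oocyte was highest for Dgcr8 (19.9 CPM, next 12.5), Ago4 (1.68 CPM, next 0.718) and Piwil2 (26.6 CPM, next 7.66). At MII, the first NSN-MII oocyte was highest for Dicer1 (470.4 CPM, next 308) and Piwil2 (9.05 CPM, next 3.59). No explanation for these oocytes was tested.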

How the results depend on the processing

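The number of members called was 4 between the stages and 0 in the other comparisons. Leaving out each library gave 3 to 5 members between the stages, 0 to 1 for the types at MII, and 0 at GV and in the interaction. For the types at MII the count was 1 (Ddx4) with DESeq2, with no filter on low counts, and without the third NSN-MII oocyte. It was also 1 (Ddx4) with an unadjusted p and a 1.5-fold change, a rule that called 719 of 10028 genes. In the interaction the same rule called 1 member (Dicer1) and 600 of 11375 genes. Genes called between the types at MII numbered 26 with edgeR, 218 with DESeq2, 89 with no filter, 4 by limma on FPKM and 2 with the replicate block, and 2 to 233 with a library left out. In the interaction they numbered 2 with edgeR and 46 with DESeq2. The cause of these differences was not tested.

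Directions turned as follows, in log2. Between the stages, Ago3 was at -0.224 by limma on FPKM (-0.226 with the smaller pseudocount) and Dicer1 at 0.157 (0.159), with the implied lengths given above moving alongside. Dicer1 was at 0.176 and Ddx4 at 0.349 in NSN oocytes alone. At MII, Ago3 was at 0.014 by limma on FPKM, and Piwil2 in the interaction at -0.025. With each library left out, the range crossed 0 at GV for Drosha (-0.819 to 0.117), Dgcr8 (-0.371 to 0.473), Ago2 (-0.204 to 0.125), Piwil2 (-0.89 to 3.395) and Ddx4 (-0.111 to 1.014). It did so at MII for Drosha (-0.34 to 0.31) and Ago2 (-0.012 to 0.515), between the stages for Ddx4 (-0.184 to 0.238), and in the interaction for Drosha (-0.05 to 1.018), Ago3 (-0.016 to 0.393), Piwil2 (-1.51 to 2.573) and Mael (-0.17 to 0.641).

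The labels do not say what a replicate number marks, and the numbers did not meet the limit set for pairing, a correlation over 0.1 in every pair: same-numbered NSN and SN oocytes had correlations of -0.217, -0.206 and -0.458 at GV and 0.0186, 0.0966 and -0.119 at MII. Same-numbered GV and MII oocytes had 0.186, 0.0287 and 0.202 within NSN and 0.0143, -0.0373 and 0.0484 within SN. With the replicate number as a block, Dgcr8 was not called between the stages (-0.815, adjusted p = 0.112 by edgeR), 3 members were, Ddx4 was at 0.081, and Drosha at MII was at -0.023. Scaling moved the median of all genes between the stages from -0.10 (TMM) to -0.14 with DESeq2's size factors and to -0.24 in FPKM, and the directions and calls of Mael, Drosha and Ago3 held under both scalings of counts.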
